A study of Homo sapiens with 6 samples.

Results

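The genes described here encode the extracellular matrix and the enzymes that modify it, laminins left out. The set is a list of 60 symbols that covers collagens, adhesive glycoproteins, fibrillins and latent TGF-beta binding proteins, proteoglycans, cross-linking enzymes, metalloproteases and their inhibitors. All 60 symbols were found among the 26364 genes of the table, and 53 had a mean of at least 10 normalised reads over the 6 libraries and were tested. The RNA came from T47D, a human breast cancer cell line of the luminal A class. It was taken 48 h after transfection with 1 siRNA product per group, by catalogue number. The siELF5 group (3 libraries) received Ambion siRNA AM16708 against ELF5, a transcription factor with an ETS domain that acts in luminal cells of the mammary gland. The siNC group (3 libraries) received the control siRNA Ambion 4390846. Both groups were bulk RNA of this 1 cell line. With 1 siRNA product per group, loss of ELF5 and other effects of that product cannot be told apart.

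The extracellular matrix is the protein and polysaccharide network that cells secrete around themselves. Epithelial cells rest on a basement membrane built of laminins, type IV collagen, nidogens and perlecan, while fibroblasts make most of the fibrillar collagen of the breast stroma. Membrane proteoglycans tie cells to this network, latent TGF-beta binding proteins store growth factor in it, and metalloproteases and their TIMP inhibitors set how fast it is cut.

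ELF5 itself averaged 3680 ± 43.7 normalised reads in siELF5 and 13095 ± 164 in siNC (SD, n = 3 each). Library totals were 72.4 to 83.7 M reads in siELF5 and 66.8 to 83.3 M in siNC, where M stands for 1e6. The 10 luminal epithelial markers checked summed to 776262 to 807802 normalised reads in siELF5 and 820961 to 867425 in siNC. Within them KRT8 and KRT18 fell, GATA3, FOXA1, ESR1, PGR and XBP1 rose, and KRT19, EPCAM and CDH1 did not pass. KRT8, the most abundant, averaged 188742 in siELF5 and 250610 in siNC. The 10 fibroblast markers summed to 346 to 404 in siELF5 and 398 to 541 in siNC, with POSTN at 0 in every library and 3 of the 10 high enough to be tested. Myoepithelial markers (8) summed to 1740 to 1836 in siELF5 and 1334 to 1410 in siNC, with ACTA2 at 739 in siELF5 and 356 in siNC, TP63 also risen, and KRT17, MYLK and OXTR not past the test. Endothelial markers (6) summed to 68.8 to 92.4 in siELF5 and 56.3 to 77.5 in siNC, and leukocyte markers (6) to 308 to 371 in siELF5 and 264 to 269 in siNC. Their part in the results was not tested. A measure of GC dependence (the median deviation of the genes in the highest of 10 GC classes less that of the genes in class 5, on the log2 scale) was 0.221 to 0.277 in the siELF5 libraries and -0.395 to -0.072 in the siNC libraries. It therefore separates the groups, and GC content is given below beside the genes it touches.

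Of the 53 matrix genes tested, 29 rose and 10 fell in siELF5 (limma adjusted p under 0.05), and 14 did not pass. That is 54.7% risen against 23.8% of all genes tested, and 18.9% fallen against 23.3%. Calls in either direction covered 73.6% of the matrix genes and 47.1% of all 16032 genes tested. The 3 siELF5 values did not overlap the 3 siNC values for 42 of the 53 (79.2%), against 55.9% of all genes. Changes of at least 2-fold that passed the test were seen for 13 of the 53 (24.5%), 11 upward and 2 downward, against 4.14% of all genes tested. The median log2 fold change was 0.44 over the 53 genes and 0.00 over all genes tested (0.0015 before rounding). The list was chosen with earlier results of these data known, so these shares and medians are descriptions and no test of the list.

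**Figure D1:**
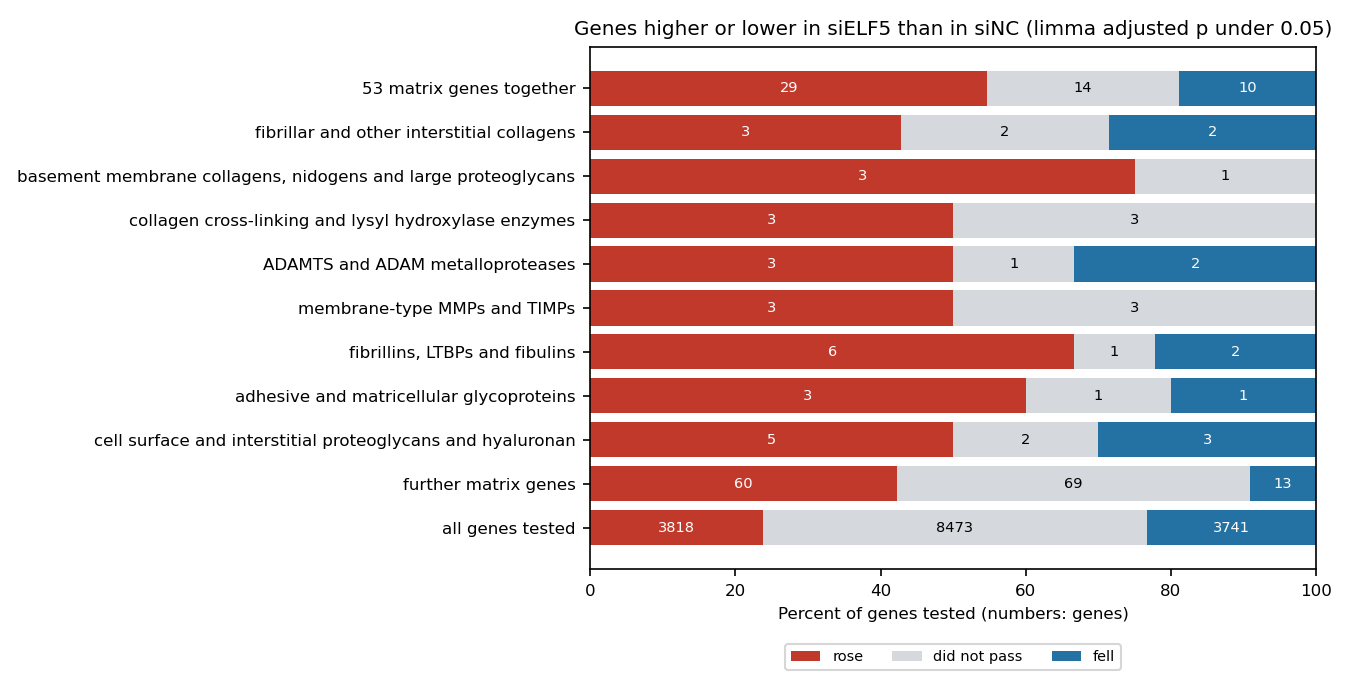
Percent of genes tested that rose, did not pass or fell in siELF5 against siNC, for the matrix genes by role, the further matrix genes and all genes; numbers in the bars are genes. Of the 53 matrix genes 29 rose and 10 fell, while the bar of all genes has 3818 risen and 3741 fallen.

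Part of the upward balance lay in GC-rich genes. Of the 17 tested matrix genes with a transcript GC content of at least 60%, 14 rose and 1, COL1A1, fell, and over all genes of this GC class 54.7% rose and 5.6% fell. Of the 36 with a lower GC content, 15 rose and 9 fell, where 19% of all such genes rose and 27.1% fell. After a per-library correction for GC content, 24 of the 53 rose and 10 fell, against 21.5% risen and 28.6% fallen over all genes corrected. The median of the 17 GC-rich genes was then 0.22 in place of 0.94. With the library GC measure as a covariate (the GC covariate), 11 rose and 6 fell (32.1% called, against 7.15% of all genes), and the median standard error of the 53 genes was 0.179 in place of 0.0936. In that fit the GC measure and the siRNA cannot be fully told apart, since the measure separates the groups, and what sets it was not tested.

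**Figure D2:**
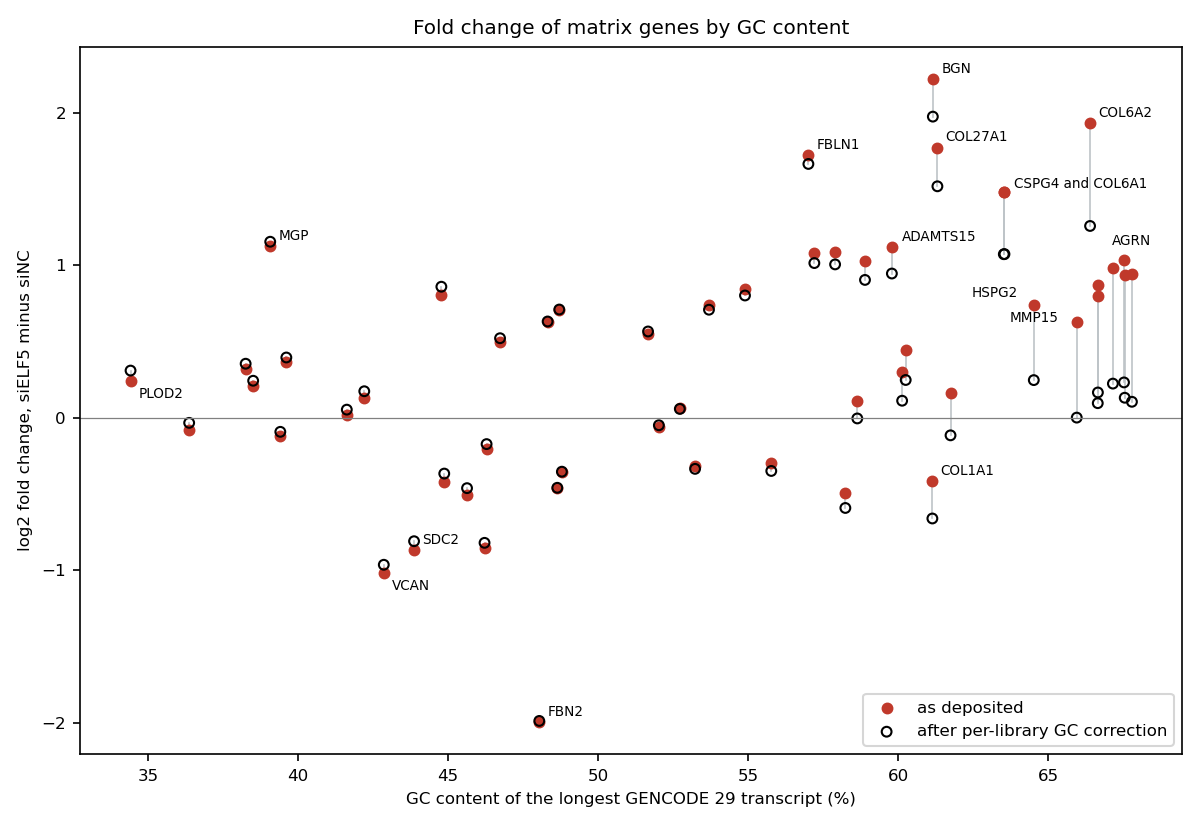
Log2 fold change (siELF5 minus siNC) of the 53 tested matrix genes against the GC content of their longest transcript in percent; filled points are values as deposited, open points those after the GC correction, joined by a line per gene. The pairs lie close together at low GC content and far apart at the highest, where AGRN goes with the correction to 0.23 and MMP15 to 0.00.

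A core of 17 genes passed the test in the same direction under every alternative in which they had a value, both GC adjustments included. They are the same 17 that were called with the GC covariate (32.1% of the 53, against 7.15% of all genes). How many of all genes passed under every alternative was not counted. The 11 that rose were MGP, ADAMTS15, TIMP1, TIMP2, LTBP1, MATN2, PLOD2, ADAM10, GPC4, CSPG4 and BGN. BGN was too low to have a value in the setting with a minimum mean of 50. The 6 that fell were VCAN, SDC2, SDC4, THBS1, EFEMP1 and COL1A1. Promoters of 4 of them are shown, 2 of risen and 2 of fallen genes, because ELF5 belongs to the ETS factors, which bind DNA with the core GGAA. They are 300 bases each around the start of the gene, 5′ to 3′ on the gene's strand, from RefSeq on GRCh38.p14, and 46 of the 60 genes had such an entry. Capitals mark AGGAAG or CGGAAG (ETS forms) or TGAGTCA (AP-1), each searched on both strands.

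TIMP1, chrX:47582186-47582485, plus strand: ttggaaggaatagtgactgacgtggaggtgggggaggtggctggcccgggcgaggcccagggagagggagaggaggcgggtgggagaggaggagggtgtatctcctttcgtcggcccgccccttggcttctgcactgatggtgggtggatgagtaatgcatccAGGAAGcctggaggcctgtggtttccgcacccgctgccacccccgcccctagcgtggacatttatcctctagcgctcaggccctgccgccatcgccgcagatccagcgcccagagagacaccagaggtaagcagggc
LTBP1, chr2:32946703-32947002, plus strand: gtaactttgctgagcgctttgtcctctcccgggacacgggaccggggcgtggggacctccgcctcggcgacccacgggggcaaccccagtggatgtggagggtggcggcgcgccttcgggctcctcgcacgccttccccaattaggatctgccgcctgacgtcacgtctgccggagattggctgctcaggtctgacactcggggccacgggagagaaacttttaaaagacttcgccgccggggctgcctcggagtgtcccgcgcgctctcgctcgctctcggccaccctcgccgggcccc
THBS1, chr15:39580829-39581128, plus strand: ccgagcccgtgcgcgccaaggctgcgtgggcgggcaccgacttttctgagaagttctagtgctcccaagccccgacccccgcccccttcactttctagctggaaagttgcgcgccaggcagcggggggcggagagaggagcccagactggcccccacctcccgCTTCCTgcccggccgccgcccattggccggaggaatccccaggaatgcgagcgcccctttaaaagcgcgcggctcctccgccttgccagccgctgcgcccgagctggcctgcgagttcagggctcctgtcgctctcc
VCAN, chr5:83471494-83471793, plus strand: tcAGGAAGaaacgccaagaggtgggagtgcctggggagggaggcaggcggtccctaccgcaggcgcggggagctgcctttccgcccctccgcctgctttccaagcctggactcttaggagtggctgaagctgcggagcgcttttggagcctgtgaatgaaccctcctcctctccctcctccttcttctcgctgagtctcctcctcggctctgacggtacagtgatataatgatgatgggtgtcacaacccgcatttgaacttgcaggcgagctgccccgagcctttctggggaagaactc

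TIMP1, THBS1 and VCAN each held 1 AGGAAG, on the minus strand in THBS1, and LTBP1 held none of the 3 motifs. At least 1 of the 2 ETS forms was present in 10 of 23 promoters of risen matrix genes, 3 of 6 of fallen ones and 46.9% of all 35116 promoters in the table. TGAGTCA was found in 1 of the 46 matrix promoters and in 4.95% of all promoters. Each matrix gene was counted by its first entry only, while the shares of all promoters count every entry. These matches are letters in a window and not binding sites.

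The adhesive and matricellular glycoproteins held the most abundant matrix transcript. MGP, matrix Gla protein, a small vitamin K-dependent inhibitor of calcification, had 187615, 188698 and 176535 normalised reads in siELF5, against 88492, 81869 and 83337 in siNC. Every siELF5 library thus lay far above every siNC library. Its log2 fold change was 1.12 (SE 0.036, limma adjusted p = 4.88e-10), on the log2(value + 1) scale used throughout, and 1.15 after the GC correction. Per kilobase of transcript, MGP made up 69.0% ± 0.57 of the summed level of the 60 genes in siELF5 and 50.7% ± 1.16 in siNC (SD, n = 3 each).

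The 60 genes together had 517178, 519387 and 504732 normalised reads in siELF5, against 417970, 415650 and 417650 in siNC. Without MGP the sums were 329563, 330689 and 328197 in siELF5, against 329478, 333781 and 334313 in siNC. Without MGP the groups thus had nearly equal sums. In bulk RNA, fewer cells expressing a gene and less RNA per cell cannot be told apart.

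**Figure D3:**
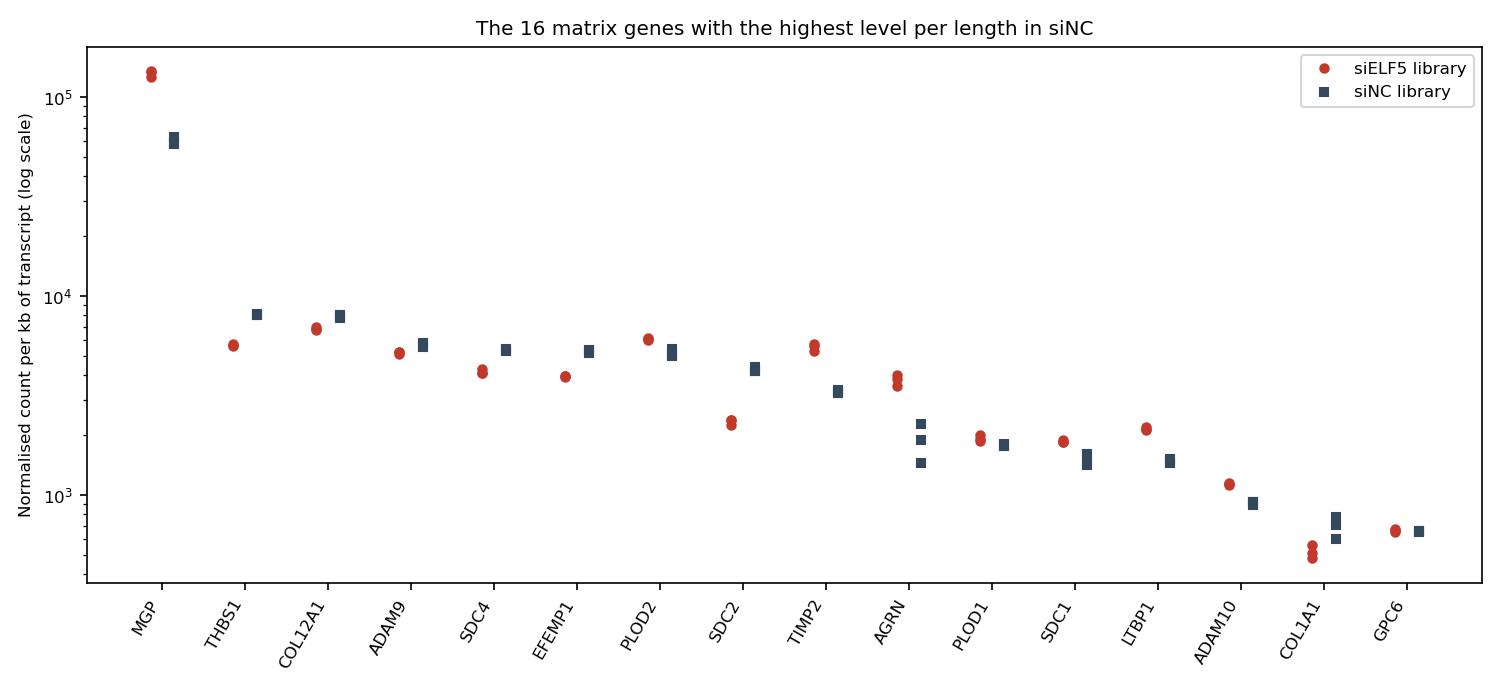
Normalised count per kilobase of the longest transcript, on a log axis, for the 16 matrix genes with the highest such level in siNC; each point is a library. MGP stands above every other gene in both groups, and THBS1 and COL12A1, next in siNC, are lower in siELF5.

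THBS1, thrombospondin 1, a matricellular protein that restrains angiogenesis and can activate latent TGF-beta, fell. It had 44101, 43505 and 44491 normalised reads in siELF5, against 62044, 63200 and 62355 in siNC, and the groups lay far apart. The log2 fold change was -0.51 (SE 0.026, limma adjusted p = 1.77e-08). MATN2, matrilin 2, a filament-forming adaptor, rose with a difference of 0.63 on the log2 scale (SE 0.064), from values of 1482, 1575 and 1376 in siELF5, against 981, 960 and 925 in siNC.

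FN1, fibronectin, the main adhesive glycoprotein read by integrins, rose only slightly. It had 6005, 5802 and 6102 normalised reads in siELF5, against 5559, 5528 and 5295 in siNC, a difference of 0.13 on the log2 scale (SE 0.037, limma adjusted p = 0.0129). The FN1 call was lost without siNC replicate 3 (adjusted p = 0.0526) and with the GC covariate (0.24, adjusted p = 0.133). ECM1 did not pass, with 30.8 to 42.2 in siELF5 and 36.4 to 58.6 in siNC. SPARC, a collagen-binding glycoprotein typical of stroma, had at most 16.2 normalised reads in any library and was not tested.

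Interstitial collagens moved in both directions, with 3 of 7 risen and 2 fallen. COL12A1, a fibril-associated collagen and the most abundant of the 7 per length, had 79626, 78632 and 82079 normalised reads in siELF5, against 92996, 93425 and 90763 in siNC. Its log2 fold change was -0.21 (SE 0.028, limma adjusted p = 6.61e-05), a small difference without overlap. With the library GC measure as a covariate it was -0.15 (adjusted p = 0.283).

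COL1A1, the alpha 1 chain of type I collagen, fell. It had 3220, 3434 and 3765 normalised reads in siELF5, against 4029, 4734 and 5184 in siNC, so the groups stood close without overlapping. The log2 fold change was -0.42 (SE 0.079, limma adjusted p = 0.00088), and it was -0.66 after the GC correction. Its partner chain COL1A2 averaged 9.65 in siELF5 and 7.92 in siNC, and COL3A1, which forms mixed fibrils with type I collagen, averaged 6.45 in siELF5 and 5.31 in siNC. Per kilobase, COL1A1 stood at 516 in siELF5 and 691 in siNC, against 1.61 and 1.32 for COL1A2.

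The type VI chains, which form beaded microfibrils, were low, and 2 of 3 rose. COL6A1 had 480, 498 and 504 normalised reads in siELF5, against 149, 162 and 226 in siNC (log2 fold change 1.48, SE 0.141). The COL6A1 value was 1.07 after the GC correction, where it passed, and 0.67 with the GC covariate, where it did not (adjusted p = 0.197). COL6A2 had 18.1, 29.4 and 29.8 in siELF5, against 9.2, 1.84 and 10.1 in siNC, and lost its call after the GC correction (1.26, adjusted p = 0.0647) and with the GC covariate (1.83, adjusted p = 0.526). COL6A3, a further chain, had 3.92 to 14.5 in siELF5 and 4.6 to 20.2 in siNC and did not pass.

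COL27A1, a fibrillar collagen of cartilage, rose from a low level. It had 240, 236 and 294 normalised reads in siELF5, against 54.0, 83.0 and 90.1 in siNC, a difference of 1.77 on the log2 scale (SE 0.195, limma adjusted p = 1.19e-05). The value after the GC correction was 1.52, and 0.80 with the library GC measure as a covariate (adjusted p = 0.315). COL5A1, a regulator of fibril diameter, had 44.4 to 86.3 in siELF5 and 35.6 to 57.7 in siNC and did not pass.

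**Figure D4:**
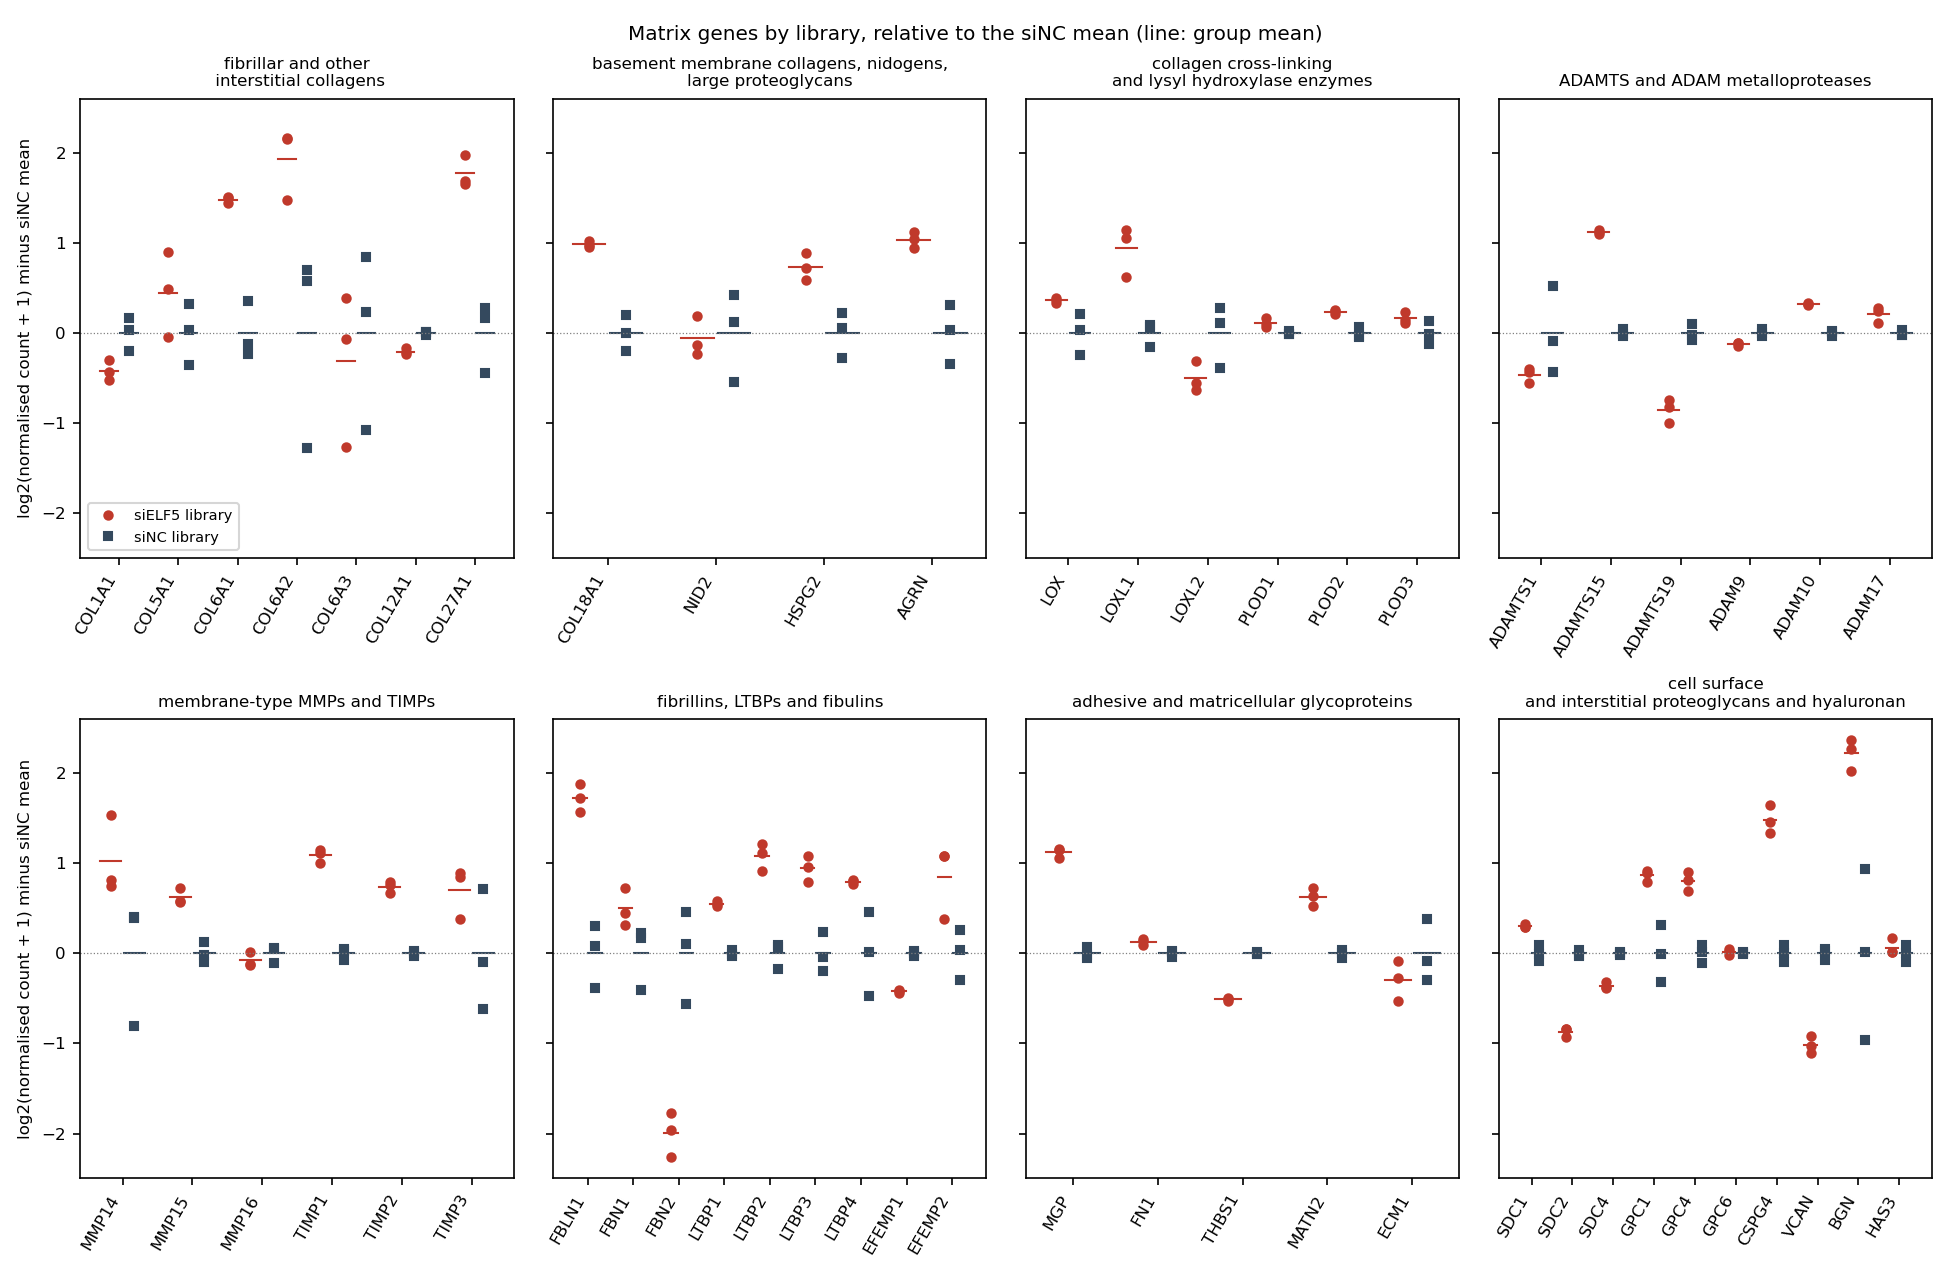
Values of each tested matrix gene in each library as log2(normalised count + 1) minus the siNC mean, in 8 panels by role; circles are siELF5 libraries, squares siNC libraries, and short lines group means. By group mean BGN and COL6A2 lie highest in siELF5 and FBN2 lowest, and among the proteoglycans SDC2 and VCAN lie below 0 while GPC1, GPC4 and CSPG4 lie above it.

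Among the basement membrane genes, 3 of 4 tested rose, all of them GC-rich. AGRN, agrin, a heparan sulfate proteoglycan, had 28131, 29545 and 26091 normalised reads in siELF5, against 10691, 13970 and 16834 in siNC. The siNC libraries differed widely among themselves, and every siELF5 library was higher. The log2 fold change of 1.04 (SE 0.115) was 0.23 after the GC correction and 0.08 with the library GC measure as a covariate (adjusted p = 0.669).

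COL18A1, the collagen that gives rise to endostatin, had 2037, 2102 and 2007 normalised reads in siELF5, against 904, 1032 and 1189 in siNC. Its log2 fold change was 0.98, and 0.22 after the GC correction. HSPG2, perlecan, had 2511, 2754 and 3095 in siELF5, against 1374, 1729 and 1944 in siNC, with 0.74 and 0.25 after the correction. All 3 still passed after the correction, at smaller values, and none passed with the GC covariate, where COL18A1 was at 0.42 (adjusted p = 0.0799) and HSPG2 at 0.04 (adjusted p = 0.927). In GENCODE 29, 11.6% of HSPG2 exon bases are shared with an antisense gene, and the kit does not mark strand.

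The ubiquitous type IV chains were nearly absent. COL4A1 had 7.24 to 14.4 normalised reads in siELF5 and 4.05 to 13.8 in siNC, and COL4A2 had 4.91 to 13.4 in siELF5 and 5.75 to 14.2 in siNC, so neither was tested. Their relatives COL4A5 and COL4A6, neighbouring X-linked genes, were expressed and rose. COL4A6 had 3226, 3121 and 3460 normalised reads in siELF5, against 2116, 2118 and 2108 in siNC (log2 fold change 0.63, SE 0.048, limma adjusted p = 4.96e-07), and it passed under both GC adjustments. COL4A5 averaged 7766 ± 314 in siELF5 and 6526 ± 52.0 in siNC (SD, n = 3 each), a log2 fold change of 0.25. COL4A5 passed after the GC correction (0.27) but not with the GC covariate (0.29, limma adjusted p = 0.0702). NID2, nidogen 2, had 63.4 to 85.4 in siELF5 and 50.7 to 100.2 in siNC without passing, and NID1 had 4 reads in 1 siELF5 library and 0 in the other 5.

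The latent TGF-beta binding proteins, which hold the growth factor in the matrix, all 4 rose. LTBP1 was by far the most abundant, with 13904, 13344 and 13573 normalised reads in siELF5, against 9534, 9145 and 9227 in siNC. The groups were tight and well apart, with a difference of 0.55 on the log2 scale (SE 0.032, limma adjusted p = 5.81e-08), 0.57 after the GC correction. LTBP2 had 475, 547 and 586 in siELF5, against 224, 266 and 270 in siNC (log2 fold change 1.08, and 1.01 after the correction). LTBP2 did not pass with the GC covariate (0.68, adjusted p = 0.161).

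LTBP3 and LTBP4, whose transcripts have 67.8% and 66.7% GC, depended on the adjustment. LTBP3 had 4576, 4989 and 4091 normalised reads in siELF5, against 2061, 2295 and 2782 in siNC, a log2 fold change of 0.94, or 0.10 after the GC correction (adjusted p = 0.0456). The LTBP3 call was lost when the replicate block was added to that correction (adjusted p = 0.06) and with the GC covariate (0.28, adjusted p = 0.252). LTBP4 averaged 816 ± 11.6 in siELF5 and 486 ± 155 in siNC (SD, n = 3 each), with siNC libraries from 337 to 646. Its log2 fold change of 0.80 was 0.10 after the correction (adjusted p = 0.481) and -0.51 with the library GC measure as a covariate (adjusted p = 0.165).

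Fibulins and fibrillins, which assemble elastic microfibrils, split. FBLN1, fibulin 1, had 154, 192 and 173 normalised reads in siELF5, against 39.1, 54.4 and 63.8 in siNC, a difference of 1.73 on the log2 scale (SE 0.204, limma adjusted p = 2.24e-05), and 1.67 after the GC correction. With the GC covariate FBLN1 was at 0.68 and did not pass (adjusted p = 0.463). EFEMP1, fibulin 3 and the most abundant gene of this group, fell. It had 12003, 11924 and 11788 normalised reads in siELF5, against 15561, 16225 and 16023 in siNC (log2 fold change -0.42, SE 0.030, limma adjusted p = 3.04e-07).

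FBN2, fibrillin 2, which is best known from developing tissue, had the largest decrease of the 53 genes, from a low level. It had 9.06, 7.85 and 6.16 normalised reads in siELF5, against 46.0, 36.0 and 22.3 in siNC, that is 24 reads in all siELF5 libraries against 101 in siNC. The log2 fold change was -1.996 (SE 0.397, limma adjusted p = 0.00119), but -0.62 with the library GC measure as a covariate (adjusted p = 0.805). FBN1 had 12.3 to 16.7 in siELF5 and 7.08 to 11.5 in siNC and did not pass. EFEMP2, fibulin 4, had 38.9, 63.8 and 63.7 in siELF5, against 35.6, 24.0 and 30.4 in siNC (log2 fold change 0.85), and its call was lost when siELF5 replicate 2 (adjusted p = 0.105), siELF5 replicate 3 (0.0921) or siNC replicate 2 (0.0954) was left out. EFEMP2 did not pass with the GC covariate either (1.09, adjusted p = 0.468).

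Of the cell surface syndecans, SDC1 rose while SDC2 and SDC4 fell. SDC2, syndecan 2, a heparan sulfate proteoglycan more typical of mesenchymal cells, had 8925, 8917 and 8410 normalised reads in siELF5, against 16447, 15828 and 15677 in siNC. The groups were far apart, with a difference of -0.87 on the log2 scale (SE 0.035, limma adjusted p = 2.29e-09). SDC4, a focal adhesion syndecan, had 10736, 11217 and 10698 in siELF5, against 13971, 14059 and 13783 in siNC (log2 fold change -0.36, SE 0.032).

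SDC1, the main syndecan of epithelia, averaged 6112 ± 79.2 normalised reads in siELF5 and 4963 ± 317 in siNC (SD, n = 3 each). Its log2 fold change of 0.30 was 0.11 after the GC correction, where it passed, and 0.05 with the GC covariate, where it did not (adjusted p = 0.805). Per kilobase, SDC1 made up 22.2% ± 0.49 of the 3 syndecans in siELF5 and 13.6% ± 0.92 in siNC, and SDC2 made up 27.9% ± 0.50 and 38.3% ± 0.83 (SD, n = 3 each). SDC4 made up 49.9% ± 0.70 in siELF5 and 48.1% ± 0.42 in siNC.

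Glypicans are heparan sulfate proteoglycans with a lipid anchor, and 2 of 3 rose. GPC4 averaged 735 ± 54.6 normalised reads in siELF5 and 420 ± 29.2 in siNC (SD, n = 3 each), a log2 fold change of 0.80 and 0.86 after the GC correction. GPC1 had 2069, 1928 and 2091 in siELF5, against 892, 1109 and 1386 in siNC (log2 fold change 0.87), and lost its call after the GC correction (0.17, adjusted p = 0.0531) and with the GC covariate (0.02, adjusted p = 0.964). GPC6 had 4183 to 4377 in siELF5 and 4199 to 4272 in siNC, with a difference of 0.02 on the log2 scale (SE 0.037), and did not pass.

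The chondroitin sulfate proteoglycans CSPG4 and VCAN moved in opposite directions. CSPG4, also known as NG2 and a marker of pericytes and melanoma, had 330, 358 and 409 normalised reads in siELF5, against 130, 122 and 139 in siNC. Its log2 fold change was 1.48 (SE 0.126, limma adjusted p = 1.32e-06), and 1.07 after the GC correction. VCAN, versican, a large hyaluronan-binding proteoglycan of loose matrix, had 1175, 1118 and 1269 in siELF5, against 2484, 2446 and 2285 in siNC. Its siELF5 mean was 0.494 of its siNC mean, with a difference of -1.02 on the log2 scale (SE 0.060, limma adjusted p = 5.79e-08).

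BGN, biglycan, a small leucine-rich proteoglycan, had the largest increase, from few reads. It had 65.2, 55.0 and 69.8 normalised reads in siELF5, against 25.3, 12.9 and 6.07 in siNC (196 reads in all against 42). The log2 fold change was 2.22 (SE 0.416, limma adjusted p = 0.000775), and the size was loosely set, at 1.98 after the GC correction and 4.95 with the library GC measure as a covariate. HAS3, a hyaluronan synthase, had 341 to 380 in siELF5 and 317 to 361 in siNC and did not pass.

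Among proteases, ADAMTS15, a secreted enzyme that cleaves versican and aggrecan, rose. It had 4228, 4311 and 4361 normalised reads in siELF5, against 1934, 2040 and 1963 in siNC, with little spread in either group. The log2 fold change was 1.12 (SE 0.042, limma adjusted p = 1.35e-09), 0.95 after the GC correction and 1.08 with the library GC measure as a covariate. ADAMTS19 fell, with 52.5, 46.1 and 55.5 in siELF5, against 92.0, 88.5 and 100.2 in siNC (log2 fold change -0.85, SE 0.192), and did not pass with the GC covariate (-0.94, adjusted p = 0.357).

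The membrane ADAM sheddases changed by small amounts. ADAM10, the sheddase of Notch and E-cadherin, had 12956, 13070 and 12882 normalised reads in siELF5, against 10518, 10503 and 10115 in siNC (log2 fold change 0.32, SE 0.031, limma adjusted p = 3.95e-06). ADAM17, which sheds TNF and EGF-family ligands, had 2736, 2442 and 2670 in siELF5, against 2317, 2224 and 2233 in siNC (log2 fold change 0.21). In GENCODE 29, 28.5% of ADAM17 exon bases are shared with the antisense gene IAH1. ADAM9 had 20144, 20142 and 19671 in siELF5, against 22371, 21224 and 21694 in siNC, a difference of -0.12 on the log2 scale (SE 0.030, adjusted p = 0.00496). With the GC covariate neither ADAM17 (0.33, adjusted p = 0.134) nor ADAM9 (-0.06, adjusted p = 0.727) passed.

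ADAMTS1 had 27.5 to 30.8 normalised reads in siELF5 and 29.9 to 59.0 in siNC and did not pass. ADAMTS17 had at most 8.3 in any library, and ADAMTS9 was at 0 reads in all 6. These were not tested.

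Of the TIMPs, the tissue inhibitors of metalloproteases, 2 of 3 rose. TIMP2, the most abundant of them per length, had 20374, 20860 and 19193 normalised reads in siELF5, against 12104, 12241 and 11833 in siNC, a difference of 0.74 on the log2 scale (SE 0.035, limma adjusted p = 8.81e-09). TIMP1 had 1078, 1107 and 1003 in siELF5, against 473, 509 and 516 in siNC (log2 fold change 1.09, SE 0.074, limma adjusted p = 1.77e-07). After the GC correction the values were 0.71 for TIMP2 and 1.01 for TIMP1. TIMP3 had 28.8 to 41.2 in siELF5 and 13.8 to 36.4 in siNC and did not pass, but passed without siNC replicate 3 (adjusted p = 0.0273). Its log2 fold change of 0.71 turned to -1.24 with the GC covariate (adjusted p = 0.44).

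Membrane-type matrix metalloproteases are anchored enzymes that cut collagen at the cell surface. MMP14, the best studied of them, was scarce, with 23.5, 41.2 and 24.6 normalised reads in siELF5, against 18.4, 7.38 and 18.2 in siNC. Its groups did not overlap, yet it did not pass (log2 fold change 1.03, SE 0.417, limma adjusted p = 0.0591), and it passed without siNC replicate 1 (adjusted p = 0.0378) or replicate 3 (adjusted p = 0.0415). MMP15 had 1228, 1352 and 1221 in siELF5, against 807, 764 and 892 in siNC (log2 fold change 0.63). The MMP15 value was 0.00 after the GC correction (adjusted p = 0.995), at a GC content of 66%, and 0.40 with the GC covariate (adjusted p = 0.218). MMP16 had 480 to 533 in siELF5 and 487 to 548 in siNC and did not pass.

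Of the 6 tested enzymes that hydroxylate and cross-link collagen, LOXL1, PLOD1 and PLOD2 rose and none fell. PLOD2, the telopeptide lysyl hydroxylase and the most abundant of them, had 23394, 23551 and 22929 normalised reads in siELF5, against 20756, 19316 and 19184 in siNC, a difference of 0.24 on the log2 scale (SE 0.034, limma adjusted p = 0.000107). PLOD1 had 5581, 5465 and 5850 in siELF5, against 5178, 5190 and 5293 in siNC (log2 fold change 0.11, adjusted p = 0.0308). The PLOD1 value was -0.00 after the GC correction and 0.09 with the GC covariate (adjusted p = 0.686), and its call was lost when siELF5 replicate 1 (adjusted p = 0.0651), siELF5 replicate 3 (0.0882), siNC replicate 1 (0.0594) or siNC replicate 2 (0.102) was left out.

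PLOD3 averaged 2030 ± 85.8 normalised reads in siELF5 and 1815 ± 157 in siNC (SD, n = 3 each). It did not pass (log2 fold change 0.16, adjusted p = 0.0509), but passed without siNC replicate 3 (adjusted p = 0.00681). The PLOD3 value turned to -0.12 after the GC correction (adjusted p = 0.0526) and to -0.21 with the GC covariate (adjusted p = 0.375). LOX, lysyl oxidase, had 189, 184 and 192 in siELF5, against 149, 124 and 169 in siNC, without overlap. It did not pass (adjusted p = 0.0551), but passed without siNC replicate 3 (adjusted p = 0.0248). LOX passed after the GC correction (0.40, adjusted p = 0.0338) and not with the GC covariate (0.17, adjusted p = 0.865). LOXL1 had 67.0, 91.3 and 96.5 in siELF5, against 46.0, 38.7 and 45.5 in siNC. The LOXL1 log2 fold change of 0.94 was 0.13 after the GC correction (adjusted p = 0.681) and 0.92 with the GC covariate (adjusted p = 0.433). LOXL2 had 9.24 to 11.8 in siELF5 and 11.1 to 18.2 in siNC and did not pass, and LOXL4, at 13.4 or less in any library, was not tested.

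Other matrix genes were taken from lists by function. The table held 202 of them, 142 were tested, 60 rose, 13 fell and 69 did not pass. Their median was 0.21 on the log2 scale. After the GC correction 48 rose and 22 fell, so that 49.3% were called against 50.1% of all genes. With the GC covariate 10 rose and 1 fell, 7.75% called against 7.15% of all genes. Both shares lie near those of all genes. Genes of collagen maturation had 10 risen and none fallen of 18 tested (55.6% called). Over all genes tested, 47.1% were called, 23.8% risen and 23.3% fallen. Among them P4HB, a subunit of prolyl 4-hydroxylase, averaged 95529 ± 1949 normalised reads in siELF5 and 77243 ± 2048 in siNC (SD, n = 3 each; log2 fold change 0.31). SERPINH1, the collagen chaperone HSP47, had a log2 fold change of 0.35, FKBP10 of 0.57 and P3H1 of 0.70. With the GC covariate P3H1 passed (1.08, limma adjusted p = 0.0112). P4HB (0.19, adjusted p = 0.134), SERPINH1 (0.28, adjusted p = 0.0656) and FKBP10 (0.36, adjusted p = 0.0551) did not pass in that fit.

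Of 26 further proteases and inhibitors, 13 rose and 2 fell (57.7% called). HTRA1, a secreted serine protease, averaged 463 ± 49.9 normalised reads in siELF5 and 142 ± 8.42 in siNC (SD, n = 3 each; log2 fold change 1.70, and 1.59 after the GC correction). ADAMTS4, like ADAMTS15 a versican- and aggrecan-cleaving enzyme, had a log2 fold change of 1.81. Unlike ADAMTS15, it did not pass with the GC covariate (1.12, limma adjusted p = 0.0982). Of 38 further glycoproteins and proteoglycans, 11 rose and 4 fell (39.5% called, below the 47.1% of all genes). TNC, tenascin C, rose with a difference of 1.51 on the log2 scale (SE 0.129) and averaged 382 ± 44.6 in siELF5 and 134 ± 12.0 in siNC (SD, n = 3 each).

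Of 44 genes that make or turn over glycosaminoglycan chains, 20 rose and 4 fell (54.5% called). After the GC correction 16 of these rose and 10 fell. SULF1, a sulfatase that edits heparan sulfate outside the cell, fell with a difference of -0.67 on the log2 scale (SE 0.050), averaging 3419 ± 176 normalised reads in siELF5 and 5458 ± 294 in siNC (SD, n = 3 each). PAPSS2, which makes the sulfate donor, rose with 0.58, and EXT2, a heparan sulfate polymerase subunit, with 0.31. Of 16 further collagens, 6 rose and 3 fell (56.2% called). Calls covered 51.4% of the 142 genes, close to the 47.1% of all genes, while their direction was more often upward. With the GC covariate, calls covered 16.7% of the collagen maturation genes, 3.85% of the proteases and inhibitors and 5.26% of the glycoproteins and proteoglycans. They covered 9.09% of the glycosaminoglycan genes and 6.25% of the further collagens, against 7.15% of all genes.

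A 7-base motif that went with decreases in an earlier search of these data, CACTAAC or ACTAACA in the 3′ UTR, was looked up in the matrix genes. It was present in 10 of the 53 tested, of which 5 fell and 3 rose. Over all genes, 11.6% of those searched carried it, and of these carriers 40.6% fell and 15% rose. Of all 13473 genes searched, 25.5% fell and 25.6% rose. Since the motif was picked from these same data, these shares are descriptions. The carriers that fell were COL12A1, EFEMP1, ADAM9, SDC4 and VCAN, and those that rose were LTBP2, MATN2 and GPC4. SDC2 and THBS1 fell without it. Sites of 5 carriers that changed are shown because fallen and risen genes share the motif, 5′ to 3′ from GENCODE 29 transcripts, with the motif in capitals. Whether either siRNA matches them was not tested.

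COL12A1: gttttagacaCACTAACAtttataccaa
SDC4: tcctcagttgCACTAACcacgtttcta
VCAN: gctttcataaCACTAACtcataaggtt
LTBP2: attataaaagCACTAACtctttgatcc
GPC4: caggccaaagACTAACAactgccttgg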

How the data were processed

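RNA-seq libraries of 6 T47D samples were prepared by TruSeq RNA v2, per the labels' protocols. The labels do not state that replicates are separate cultures, and p-values therefore cover the spread of these libraries alone, possibly a technical one. The submitters' processing notes name hg19, STAR 2.6, Subread, featureCounts 1.6.3 and DESeq2 1.22.1; the annotation and strand setting they used are not stated there. The deposited per-library values are signal values, each a gene count over the size factor of its library: 100% were whole multiples of 1 read (tolerance 1e-06), so reads were recovered. The authors' deposited log2 fold change, test score and p-values are their own comparison and entered no test; the authors' deposited table calls 29 of the 60 genes risen and 10 fallen at an adjusted p under 0.05.

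The two-sided limma test (version 3.58.1, R 4.3.3, variance trend on mean level) was run on log2(value + 1) of the 16032 genes with a mean of at least 10, with Benjamini-Hochberg adjustment over all of them at 0.05. Alternatives included edgeR 4.0.16 and DESeq2 1.42.0 on the recovered reads, a loess correction on transcript GC content (span 0.3; 93.1% of tested genes had a value) and the library GC measure as a covariate. The test was tested on simulated data. GC content and length come from the longest GENCODE 29 transcript, and the 3′ UTR from the longest coding one. The reference is GRCh38 while reads were placed on hg19, so it served for names, sequence and overlaps only. Replicate libraries were not duplicates of each other (chi-square per degree of freedom 4.37 to 12). Low genes are limited by counting error; at these depths high ones are not.

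Members and lists were chosen with earlier results of these data known, so counts over them are descriptions. Full library values were given, within each role, for up to 5 genes past the threshold with the largest fold change and the most abundant one, and for some others; from each further list up to 4 genes with the smallest adjusted p and a mean of at least 50 could be named. COL1A2 and COL3A1 were named after their values were seen. COL4A6 has library values by the same choice.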

Additional observations from a re-analysis of the deposited data

How the results depend on the processing

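Of 39 matrix genes called, 36 kept their call and direction without any single library. Under every alternative in which they had a value, 17 did. The like shares over all genes were not counted. The number of matrix genes called was 37 to 42 when 1 library was left out, 27 to 32 of them risen and 10 fallen. It was 6164 to 7312 over all genes and 64 to 75 among the further matrix genes. The other settings left these counts within 1.5 times, except the library GC measure as a covariate. There 1147 genes were called in all, and 17 matrix genes, 11 risen and 6 fallen, with 11 further matrix genes. It turned the direction of LTBP4 (-0.51), COL5A1 (-0.52), PLOD3 (-0.21), TIMP3 (-1.24) and GPC6 (-0.0197) downward and of MMP16 (0.18) and ECM1 (0.55) upward, and none of these then passed. The GC correction, with or without the replicate block, turned PLOD1 (-0.00455) and PLOD3 (-0.12), and quantile normalization turned HAS3 (-0.0689), again without a call. Leaving out 1 library turned COL6A3 (log2 fold change -0.85 to 0.16) and NID2 (-0.33 to 0.15), neither called.

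The replicate numbers did not pair the libraries: deviations of same-numbered libraries correlated at 0.0146, -0.0345 and -0.056. With the replicate number as a block, 39 matrix genes were called, 29 risen and 10 fallen, and 7174 genes in all. COL6A2, LOXL1, PLOD1, MMP15, LTBP4 and GPC1 lost their calls after the GC correction, and LOX gained one (adjusted p = 0.0338, limma). With the block added to that correction LTBP3 lost its call too (adjusted p = 0.06), and GPC1 kept its own. The cause of the changes with GC adjustment was not tested. Low counts, as for FBN2, BGN, COL6A2 and MMP14, leave their fold changes imprecise at this depth.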
